A study of Arabidopsis thaliana with 121 samples.

Results

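Transcripts of 6 single cdca7α cdca7β-3 plants of Arabidopsis thaliana were compared with those of 5 single WT plants, gene by gene. The 11 libraries were chosen by their genotype labels among 121 in the series, of which 82 form the second of 2 sets. They are the untransformed double mutants (label cdca7_ab, replicates R2 to R5, 4 plants), sister plants of transformants that lack the transgene (label cdca7_ab_CDCA7_no_YFP, replicates R1 and R2, 2 plants) and the WT, Col-0 (R1 to R5, 5 plants). The double mutant carries the T-DNA allele cdca7α-2, which interrupts the coding sequence of CDCA7α, and a CRISPR–Cas9 deletion in CDCA7β. The sisters are siblings of primary transformants with full-length CDCA7α, and they have the same endogenous alleles. All 6 mutant plants go back to a single edited line, so a difference that the line carries for another reason cannot be told apart from an effect of the 2 mutations. Each library came from a single rosette leaf of a 28-day-old plant grown in soil in long days, and replicates were separate plants. Fewer cells of a type in a leaf and less RNA per cell cannot be told apart in such samples.

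CDCA7 proteins have a zinc-finger domain and work with DDM1, a nucleosome remodeller that opens heterochromatin to the enzymes that copy CG methylation after replication. In plants this methylation keeps transposable elements (TEs) silent, and some genes that lie beside TEs or carry methylation in their promoters depend on it as well. Genes can also be methylated in the body without being silenced, and the loss of that methylation usually leaves their transcript levels close to those of the WT.

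The libraries are 3′-tag mRNA-seq, in which each mRNA gives a read near its poly(A) end and molecular identifiers remove PCR copies. The values are sense reads per locus, rounded to whole reads, and CPM stands for reads per 1000000 reads of the library, after TMM scaling of the totals. Totals ran from 1678826 to 3859022 reads in the 6 mutant plants and from 2819940 to 3490465 in the WT, and sister R2 and untransformed R2 were the shallowest libraries. Of 33991 nuclear genes, 16213 passed the filter of at least 10 reads in at least 3 of the 82 libraries, and 420 of 31188 TEs did. Features with a fold change of 2 or more and an adjusted p of 0.1 or less (quasi-likelihood test of edgeR, Benjamini-Hochberg over all loci tested) are termed called. SDs of log2 CPM between plants use a prior count of 2 reads, whereas fitted log2 fold changes use the default prior of edgeR. Intervals of ratios of reads, at 95%, cover counting error only.

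The labels were checked on the mutated genes and the transgene. CDCA7α gave 1, 0, 1 and 0 reads in untransformed R2 to R5, 1 and 0 in the sisters and 2, 8, 8, 3 and 4 in WT R1 to R5. It was thus lower in every mutant plant than in every WT plant, but with 25 WT reads in all it did not pass the filter and was not tested. CDCA7β gave a single read, in sister R1, and none in the WT, so at this depth a difference in CDCA7β was not detectable. The row for the tag of the transgene had 0 reads in both sisters, 1, 2, 0 and 0 in untransformed R2 to R5, 0, 3, 1, 1 and 4 in the WT and 0 to 114 in transformed plants, so a low count of this row does not show that a plant lacks the transgene. Among the tested neighbours of the mutated genes, 0 of 5 beside CDCA7α and 0 of 2 beside CDCA7β were called. Of all nuclear genes tested 0.271% were higher and 0.111% lower, so these counts of 0 are no result about the neighbours.

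Some plants stood apart before any comparison of genotypes. Summed over 22 nuclear photosynthesis genes (light-harvesting proteins, RuBisCO small subunits and the like), untransformed R5 had 50111 CPM and WT R5 had 58926, against 93641 to 144991 in the other 9 plants. WT R5 also had 1509 CPM over 18 genes of salicylic acid defence, where no other plant exceeded 555. Sister R1 had 340 CPM over 6 genes induced by touch and wounding, WT R5 had 248 and the others 74.1 to 138. WT R4 had 1354 CPM over 11 iron-deficiency genes, and the other 10 plants had 167 to 697. Each plant was therefore left out in turn.

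Genes that rose in the mutants were few and mostly close to silent in the WT. Of the 16213 nuclear genes, 44 were higher (0.271%) and 18 lower (0.111%) in the 6 plants. Of the 44, 28 had at most 3 reads in every WT plant, as did 227 (1.4%) of all genes tested, and 13 had no WT read at all. Genes this low in the WT could pass the filter only through other libraries where they were higher, so these numbers are partly set by the filter. In the 11 libraries alone 15 of the 44 did not pass it. Levels in the 6 and in the 5 plants did not overlap for 31 of the 44, and over all genes tested this was so for 51 in the higher direction (0.315%). Protein-coding genes made up 31 of the 44. The other 13 (29.5%, against 2.55% of all genes tested) were annotated as 5 lncRNAs, 1 ncRNA, 4 transcribed pseudogenes and 3 RNAs of no class. The median log2 fold change of the 44 was 4.81, or 3.95 with the genes without WT reads set at their lower bound of 3 reads over the WT group, and that of all genes tested was -0.00. Of 767 other loci, such as joint rows of several genes, 6 were higher (0.782%) and 1 lower (0.13%).

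The largest increase was at AT1G59930, which encodes a MADS-box family protein, a family of DNA-binding transcription factors. Its reads numbered 720, 2141 and 4592 (lowest, median and highest) in the 6 plants and 7, 11, 6, 10 and 10 in WT R1 to R5. Every mutant plant was far above every WT plant, with untransformed R5 lowest and sister R1 highest. The log2 fold change was 8.13 ± 1.41 (SE, n = 6 and 5, edgeR adjusted p = 0.00029). Its neighbour AT1G59920, also of the MADS-box family, had 5, 19.5 and 101 reads in the 6 plants and 0, 0, 0, 1 and 0 in the WT. The groups did not overlap, and the ratio of CPM was 172 with a counting interval of 30.6 to 6842 (adjusted p = 0.0019). The same plants, untransformed R5 and sister R1, were lowest and highest at both genes.

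Of the other 10 among the 12 largest increases without overlap, 7 had no read in any WT plant. AT4G08593, a gene for an uncharacterized protein, had 9, 35.5 and 59 reads in the 6 plants and was at least 58.6-fold higher (edgeR adjusted p = 0.00014). AT3G44265, for a beta-galactosidase-like protein, had 11, 28 and 49 reads and was at least 48.2-fold higher (adjusted p = 0.00076). The lncRNA AT1G06983 had 5, 25.5 and 53 reads, and AT2G03965, for an uncharacterized protein, had 7, 20 and 51. Both were at least 41.1-fold higher, with adjusted p = 0.0016 and 0.00037. AT2G11778 (3 to 15 reads, at least 16.6-fold), AT3G30820, which codes for a retrotransposon ORF-1 protein (3 to 12 reads, at least 14.1-fold), and the lncRNA AT5G04245 (1 to 18 reads, at least 13.2-fold) completed these 7. All 7 had reads in each of the 6 plants, and the counts of the last 3 were low.

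The remaining increases of this rank had 1 to 3 WT reads in all. AT5G29560, of the caleosin family, whose members sit on lipid droplets, had 5, 69.5 and 107 reads in the 6 plants and 0, 0, 2, 1 and 0 in the WT. Untransformed R5 was the plant with 5 reads, and the other 5 plants had 33 or more. The ratio was 108 (36.7 to 527, edgeR adjusted p = 0.0031). AT3G01345 had 3, 30.5 and 56 reads against a single WT read (ratio 153, 27.1 to 6074), and the ncRNA AT2G15555 had 5, 21.5 and 35 against a single WT read (ratio 107, 18.9 to 4272). Neither overlapped between the groups, and both were called (adjusted p = 0.0016 and 0.00054). Further lncRNAs, named after their values were seen, were AT2G05914 with 56 to 138 reads against 4, 0, 2, 0 and 4 in the WT (log2 fold change 5.56 ± 1.07) and AT2G07213 with 27 to 140 against 2, 0, 0, 0 and 4 (5.46 ± 0.96).

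**Figure D1:**
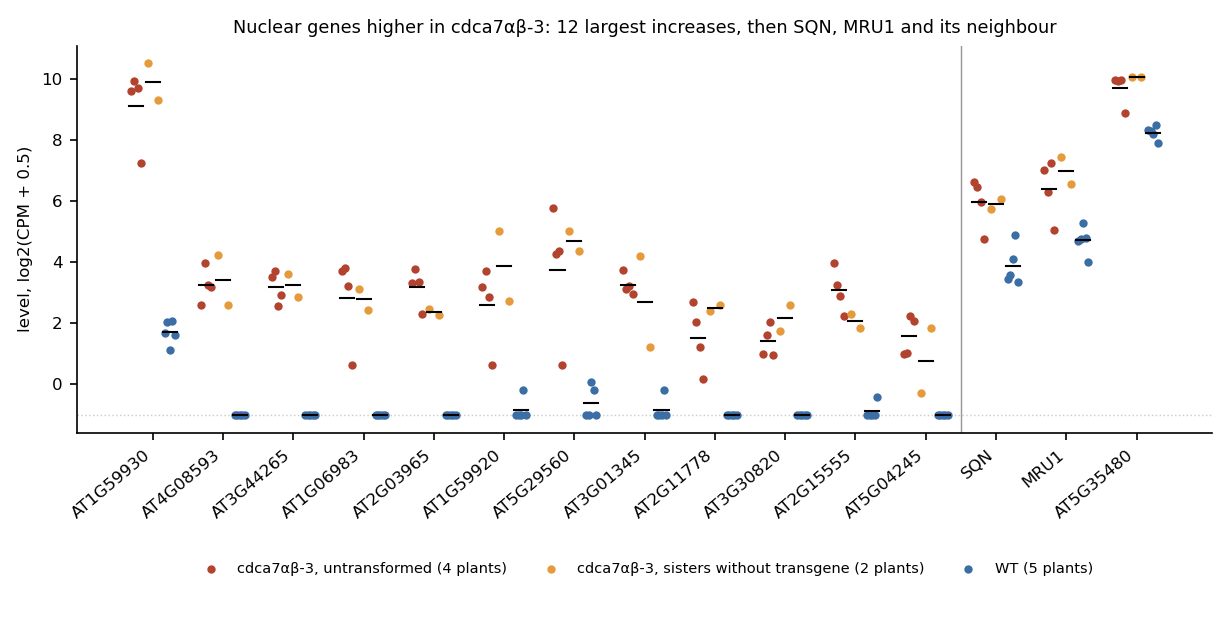
Levels of the 12 largest increases without overlap and, right of the line, of SQN, MRU1 and AT5G35480, as log2(CPM + 0.5) in each plant (red, 4 untransformed cdca7α cdca7β-3 plants, orange, 2 sisters without transgene, blue, 5 WT plants), with black bars for group means. The dotted line is 0 reads, where most WT plants sit for the 11 genes after AT1G59930, while the 6 mutant plants lie above it at every gene.

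A smaller group of genes was expressed in the WT and rose several fold, and its members were named after their values were seen. SQN (AT2G15790), which encodes cyclophilin 40, a co-chaperone that supports microRNA function through ARGONAUTE1, had 109, 181 and 343 reads in the 6 plants and 27, 35, 61, 78 and 38 in the WT. No read count of a mutant plant was as low as that of any WT plant, but after scaling untransformed R5 (26.2 CPM) fell below the highest WT plant (29.2 CPM). The mean level was 65.6 ± 25.8 CPM (SD, n = 6) against 15.5 ± 8.17 (SD, n = 5), a log2 fold change of 2.08 ± 0.39 (edgeR adjusted p = 0.00069). AGO1 itself was not called (log2 fold change -0.22 ± 0.13, adjusted p = 0.90).

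AT5G35480 and its neighbour MRU1 (AT5G35490, named for its rise in the methionine-accumulating mto1 mutant) also rose together. AT5G35480 had 1723, 2763.5 and 3769 reads in the 6 plants and 822, 955, 1051, 946 and 918 in the WT, with no overlap. Its level was 924 ± 226 CPM (SD, n = 6) against 301 ± 43.7 (SD, n = 5), a log2 fold change of 1.62 ± 0.34 (edgeR adjusted p = 0.0023). MRU1 had 151, 283 and 543 reads in the mutant, 66, 81, 138, 73 and 61 in WT R1 to R5, and a log2 fold change of 2.04 ± 0.46 (adjusted p = 0.0047). Untransformed R5, at 32.9 CPM, was the mutant plant that fell within the WT range of MRU1. Of the 62 called genes, 6 formed 3 pairs of direct neighbours in the RefSeq gene order, namely these 2, the 2 MADS-box genes and the iron-responsive genes IMA2 and IMA1 among the decreases.

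Several other increases were small, low or rested on a few plants. SLAH3, for a slow-type anion channel, had 8, 41 and 55 reads in the 6 plants and 8, 11, 15, 12 and 26 in the WT (log2 fold change 1.26 ± 0.33, edgeR adjusted p = 0.029). XPL1, for a methyltransferase of phosphocholine synthesis (1.06 ± 0.29, adjusted p = 0.037), and DRL1, a reductase gene related to dihydroflavonol reductase (1.24 ± 0.33, adjusted p = 0.025), overlapped with the WT as well. AT1G15010 had 408 reads in untransformed R3 and 4 to 69 in the other 5 plants, and without R3 its call was lost (adjusted p = 0.68). JAZ7, a repressor of jasmonate signalling, had 263 reads in sister R1, 0 to 3 in the other 5 mutant plants and 0, 0, 3, 0 and 0 in the WT, and without sister R1 it was no longer called. SLAH3, XPL1, DRL1, AT1G15010 and JAZ7 all lost their call when some WT plant was left out.

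Genes that fell were fewer still, and 6 of the 18 did not overlap between the groups, where 42 of all genes tested (0.259%) did not in that direction. Of the 6, 3 were at or near 0 in all mutant plants. AT2G01422, an ncRNA gene, had 0 reads in each of the 6 plants and 47, 75, 77, 58 and 140 in WT R1 to R5, and was at least 157-fold lower (edgeR adjusted p = 6.9e-13). AT3G28899, for an uncharacterized protein, had 0 reads in each of the 6 plants and 19, 48, 23, 15 and 31 in the WT, at least 53.6-fold lower (adjusted p = 1.5e-08). AT5G24240, for a phosphatidylinositol 4-kinase gamma-like protein, had 0, 2 and 4 reads in the 6 plants and 49, 48, 47, 51 and 165 in the WT (log2 fold change -4.95 ± 0.64, adjusted p = 3.8e-07). The WT plants were uniformly well above 0 for all 3, with WT R5 highest for the first and the last.

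The other decreases without overlap were partial. MRD1 (AT1G53480), named for its fall in mto1 and listed here among genes silenced by DNA methylation, had 1, 4 and 14 reads in the 6 plants and 30, 38, 42, 20 and 35 in the WT (log2 fold change -2.76 ± 0.67, edgeR adjusted p = 0.011). AT2G04740, for an ankyrin repeat protein, had 2, 5.5 and 8 reads against 14, 27, 29, 20 and 46 (-2.43 ± 0.50, adjusted p = 0.0018). AT5G19151 had 4, 10 and 19 reads against 14, 21, 30, 23 and 24 (-1.01 ± 0.25, adjusted p = 0.015), close to the fold limit, and it dropped below a limit without any of 6 single libraries. The plant-to-plant SD of AT2G04740 was 0.22 on the log2 scale over the 6 plants. At 2 to 8 reads per plant, with a prior count of 2 reads added, this small SD does not show that their levels were alike.

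AT2G01422, AT3G28899 and AT5G24240 were also low in other second-set libraries with the cdca7α-2 allele, whose values are only set side by side because the comparisons share the WT. AT2G01422 had 0 to 1 read in the 3 cdca7α single mutants, 0 to 2 in 17 transformants of that mutant, 0 to 4 in 45 transformants of the double mutant and 39 to 120 in the 6 cdca7β single mutants. AT3G28899 had 0 to 1, 0 to 1, 0 to 2 and 20 to 39 reads in the same groups, and AT5G24240 had 0 to 5, 0 to 7, 0 to 9 and 24 to 82. Thus the 3 genes had at most 9 reads in every second-set library with the cdca7α-2 allele, also where a transgene was present, and at least 20 in each cdca7β mutant. MRD1, with 1 to 5 reads in the cdca7α mutants, and AT2G04740, with 4 to 7, were low in them too, against 16 to 36 and 14 to 47 in the cdca7β mutants.

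Libraries of the first set, with their own WT, gave the same genes a second reading. AT2G01422 had 50 to 349 reads in 3 WT pools, 1 and 2 in the double mutant cdca7ab_1, which shares the cdca7α-2 allele, and 59 and 263 in cdca7ab_2, in which both genes were edited. It had 0 to 4 reads in 3 libraries of cdca7a_1, an independent T-DNA line with its insertion in the promoter, and 0 to 3 in cdca7a_2, which carries the cdca7α-2 allele. Per the paper, the cdca7a_1 insertion raises CDCA7α expression, although CG methylation of TEs is reduced in that line too. AT3G28899 and AT5G24240 were likewise at 0 to 8 reads in cdca7a_1, cdca7a_2 and cdca7ab_1 and at 9 or more in cdca7ab_2. In the first-set mutant cdca7b_2, AT2G01422 was at 4.15 to 9.74 CPM against 14.3 to 78.0 in the WT pools and AT3G28899 at 2.07 to 3.06 against 4.58 to 14.5, below the WT, whereas in cdca7b_1 they were at 48.5 to 106 and 10.5 to 21.0 CPM. AT2G04740 differed from the other genes, with 33 to 73 reads in cdca7a_1 against 35 to 70 in the WT pools, and 3 to 14 in cdca7a_2. MRD1 was at 2 to 6 reads in both cdca7α mutants but at 18 and 76 in cdca7ab_1. In ddm1 mutants of that set AT2G01422 had 3 to 5 reads in the libraries labelled ddm1_2_G2 and 13 to 45 in those labelled ddm1_2_G5.

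**Figure D2:**
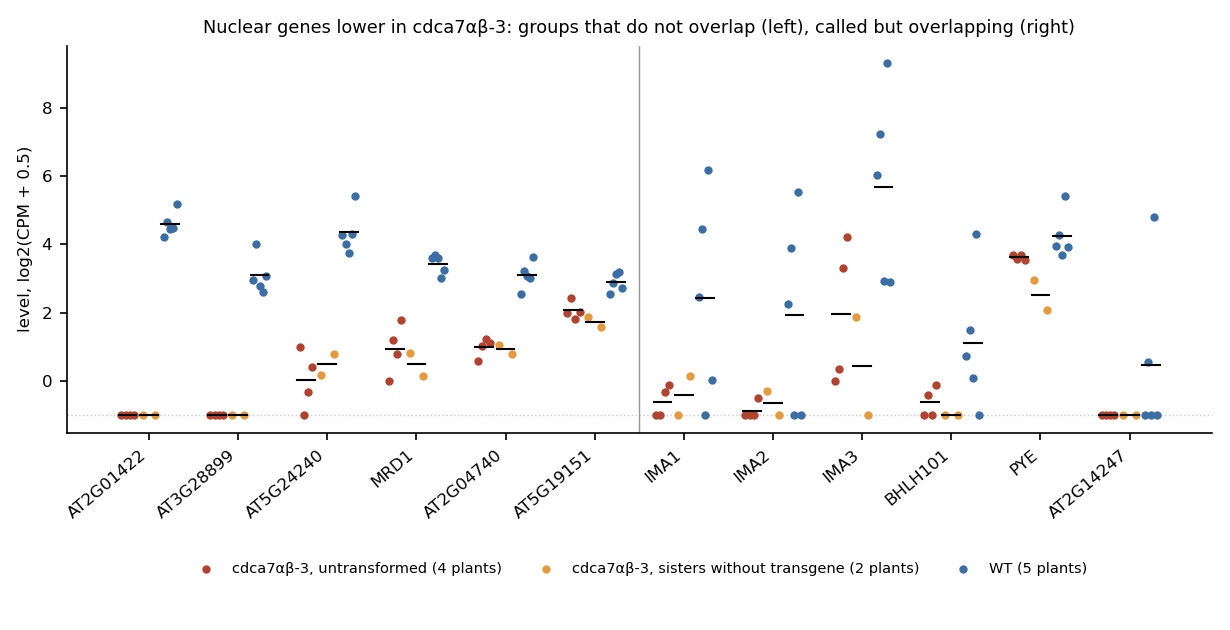
Levels of the 6 decreases without overlap (left of the line) and of 6 called genes whose groups overlap (right of it), as log2(CPM + 0.5) in each plant (red, 4 untransformed plants, orange, 2 sisters, blue, 5 WT plants), with black bars for group means. AT2G01422 and AT3G28899 sit at 0 reads, the dotted line, in all 6 mutant plants, whereas for the iron-deficiency genes the WT plants spread over several log2 units and 1 or more WT plants lie among the mutants.

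The other 12 decreases overlapped with the WT, and those in iron homeostasis depended on which WT plants were included. Leaves short of iron induce the IRON MAN peptides (IMA1 to IMA3) and the transcription factor BHLH101, which activate iron uptake, whereas the ferritin gene FER1, for iron storage, falls. Of 8 tested genes on the iron-deficiency list 4 were lower, with a list median log2 fold change of -3.17, where 0.111% of all genes tested were lower and their median was -0.00. IMA1 had 0, 0.5 and 2 reads in the 6 plants and 13, 65, 0, 191 and 2 in the WT (log2 fold change -6.28 ± 1.29, edgeR adjusted p = 0.0017). IMA3 had 0, 6.5 and 87 reads against 168, 457, 26, 1696 and 27 (-4.84 ± 1.34, adjusted p = 0.043). WT R4, R2 and R1 were highest at both, in this order, and WT R3 and R5 lay within or near the mutant range. IMA2 (11, 44, 0, 123 and 0 WT reads, 2 reads in the 6 plants together) and BHLH101 (3, 7, 2, 51 and 0, against 3 together) had the same 3 WT plants highest.

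FER1 had the lowest level of all 11 plants in WT R4, 27 reads or 10.1 CPM, and ran from 44.8 to 646 CPM in the 6 plants and up to 336 CPM in the WT, with no call (1.32 ± 0.70, edgeR adjusted p = 0.82). PYE, a transcription factor of the iron response that was not on the list, was lower by -1.04 ± 0.30 (adjusted p = 0.054). AT2G14247 had 73 of its 76 WT reads in WT R4 and none in the 6 plants. Without WT R4, 2 genes of the iron list were lower and its median was -1.46, without WT R3 or R5 6 and 7 were lower, without both sisters 2, and without WT R4 IMA3, BHLH101, PYE and AT2G14247 lost their calls. In limma 0 genes of the list were called.

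The rest of the decreases were single genes. ALMT12, an anion channel of guard cells, had 0, 0.5 and 3 reads in the 6 plants and 11, 9, 1, 14 and 14 in the WT (log2 fold change -2.96 ± 0.72, edgeR adjusted p = 0.011). Only WT R3 lay within the mutant range, and the call was lost with the replicate block (adjusted p = 0.27) and in a fit of the 11 libraries alone (0.22). HDA9, for a histone deacetylase, fell to 2.69 ± 0.973 CPM (SD, n = 6) from 5.65 ± 1.35 (SD, n = 5), at the fold limit (-1.01 ± 0.30, adjusted p = 0.070), and its call was lost without any of 7 single libraries. AT5G08180 and AT5G50530 were at 0 or 1 read in every mutant plant and at up to 126 and 26 in the WT, but 63.6% and 66.2% of their reads lie in rows that name them jointly with another locus. With those rows added, their levels were 15.2 to 43.7 CPM against 12.7 to 41.7, and 3.95 to 12.4 against 6.15 to 8.62, so these 2 calls hold only for the reads assigned to the single loci.

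Genes of known silencing pathways were counted next. With 0.271% of all genes higher and 0.111% lower, lists of this size would mostly hold 0 calls, so a count of 0 is no result about a list. For DNA methylation maintenance 0 of 7 tested genes were called (median log2 fold change 0.05), for RNA-directed DNA methylation 0 of 14 (-0.37, with 12 of 14 negative), for demethylation and IBM1 0 of 5 (-0.05), for post-transcriptional silencing 0 of 8 (-0.04) and for histone variants 0 of 8 (0.17). MET1, the CG methyltransferase, had 0.614 to 10.5 CPM in the 6 plants and 0.769 to 4.99 in the WT. ROS1, a demethylase whose level is known to fall in some methylation mutants, had 3.12 to 20.2 CPM against 5.64 to 16.5 (log2 fold change -0.20 ± 0.44, edgeR adjusted p = 0.99). DDM1 had 3 reads in the 6 plants and 11 in the WT in all and was not tested.

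Genes known to be silenced by methylation were read as well. FWA, a homeobox gene whose expression delays flowering, had 1, 1, 0, 1, 0 and 2 reads in the 6 plants and none in the WT, and SDC, an F-box gene, had a single read, in sister R1. Both were below the filter. BNS (-0.10 ± 0.35), QQS (0.34 ± 0.43) and SNC1 (-0.12 ± 0.12) were not called (edgeR adjusted p = 0.96 or above), and SNC1, a resistance gene, had 139 to 201 CPM against 155 to 210. MRD1 was therefore the single called gene among 4 tested on this list, and it was lower. Among 7 tested genes of the RPP5 cluster, to which SNC1 belongs, 0 were called.

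Lists of leaf physiology are read against the same shares of all genes. None of 22 photosynthesis genes (median log2 fold change 0.02), 16 salicylic acid (-0.07), 17 circadian (-0.07), 13 flowering (-0.25), 12 senescence (-0.02), 14 cold and drought (0.32), 9 DNA damage (0.15), 6 touch (0.80), 3 heat-shock (0.17), 4 phosphate (0.32) or 8 glucosinolate genes (0.46) was called, and of 14 jasmonate genes JAZ7 was called. The touch median rested on sister R1, without which it was -0.23, and it was -0.13 without both sisters and -0.05 in limma. The photosynthesis median was -0.15 without WT R5 and 0.21 without untransformed R5. With the replicate number as a block in a fit of the 11 libraries, which called 64 genes higher and 21 lower, 3 senescence genes were called in edgeR. SAG13 (log2 fold change 2.76, adjusted p = 0.00092) and SAG14 (1.51, adjusted p = 0.032) were higher and SEN1 (-1.19, adjusted p = 0.023) lower. LTI30, a dehydrin gene of the cold and drought list, was also called there (2.62, adjusted p = 0.046). None of these was called in the main fit (edgeR adjusted p from 0.34 to 0.94) or in the 11 libraries without the block. FT and SOC1, which promote flowering, had log2 fold changes of -0.49 ± 0.26 and -0.30 ± 0.15 (edgeR adjusted p = 0.82 and 0.79). Markers of other leaf cells overlapped between the groups. Guard cell genes summed to 23.4 to 44.2 CPM in the 6 plants and 23.7 to 57.7 in the WT, companion cell genes to 828 to 1356 and 807 to 1497, trichome genes to 5.14 to 39.9 and 13.5 to 33.4 and epidermis genes to 354 to 446 and 290 to 677, and 0 of 13 such genes tested was called. Markers of dividing cells were at 0.608 to 11.1 CPM against 0.375 to 3.26, and floral markers at 1.23 to 47.4 against 0.513 to 39.2.

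Called genes were then looked up in the first set, made from pools of 3 plants of 31 days with separate WT libraries and 2 libraries for each double mutant. In that set 43 of 16138 nuclear genes were higher in cdca7ab_1 (0.266%) and 47 in cdca7ab_2 (0.291%). Of the 44 genes higher in cdca7α cdca7β-3, 39 were tested there, and 30 of them were called higher in cdca7ab_1 and 25 in cdca7ab_2. The 25 were called in both, 5 in cdca7ab_1 but not in cdca7ab_2, and 9 in neither, and the medians over the 39 were 4.70 and 4.17. AT1G59930 had 1770 and 363 reads in cdca7ab_1 and 1059 and 364 in cdca7ab_2, against 22, 13 and 21 in the WT pools. SQN had 475 and 498, and 206 and 551, against 41, 37 and 60, with log2 fold changes of 3.30 and 3.19 (edgeR adjusted p = 2.2e-09 and 2.7e-09).

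The lower genes were looked up likewise. In the first set 7 nuclear genes were lower in cdca7ab_1 (0.0434%) and 3 in cdca7ab_2 (0.0186%). Of 17 lower genes tested there, 4 were called lower in cdca7ab_1 (AT2G01422, AT3G28899, AT5G24240 and AT2G04740) and 0 in cdca7ab_2, with medians of -2.23 and -0.02. The count of 0 is from edgeR, and the difference between the 2 mutants was not tested. AT1G75945, for an uncharacterized protein, rose in the single plants (31, 59 and 88 reads against 2, 5, 46, 2 and 0, log2 fold change 2.60 ± 0.42, edgeR adjusted p = 0.00014), but it was not called in a fit of the 11 libraries alone (adjusted p = 0.24). It had 40 and 113 reads in cdca7ab_1, 0 and 0 in cdca7ab_2 and 12, 2 and 2 in the WT pools, and 57 to 92 in the cdca7α mutants of the second set.

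**Figure D3:**
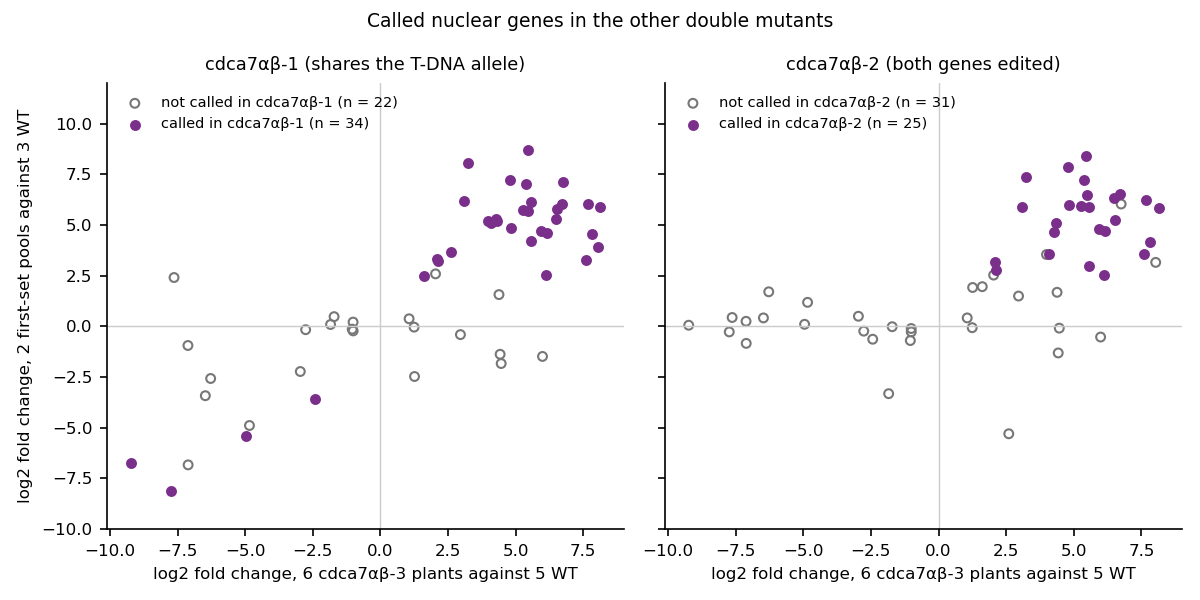
Fitted log2 fold changes of the 56 called nuclear genes that were tested in both sets, in the 6 single plants (horizontal) and in 2 first-set libraries of cdca7ab_1 or cdca7ab_2 (vertical), filled where called in the first set. Fitted values of genes with no read in a group depend on the prior count of the fit. Most increases lie high in both panels, while 4 decreases are called in the left panel and none in the right.

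Single mutants of the second set were compared with the same 5 WT plants, so their values are only set beside those of the double mutant. In the 3 cdca7α plants 35 nuclear genes were higher (0.216%) and 11 lower (0.0678%), and in the 6 cdca7β plants 3 were higher (0.0185%) and 0 lower in edgeR. The count in cdca7α rested on single plants, since leaving out a library gave 3 to 157 genes in all. In both single mutants 0 TEs were called in edgeR, where an unadjusted p under 0.05 was reached by 35 of 420 TEs in cdca7α, by 14 in cdca7β and by 232 genes that were lower in cdca7β. AT1G59930 had 121 to 219 reads in the cdca7α plants and 11 to 32 in the cdca7β plants, between the WT and the double mutant in the former. Across 45 transformants of the double mutant it ran from 4 to 6616 reads.

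Untransformed plants and sisters were compared with the WT separately and then with each other. In the 4 untransformed plants 40 genes were higher (0.247%) and 16 lower (0.0987%), and in the 2 sisters 61 were higher (0.376%) and 49 lower (0.302%). The count of the sisters rested on sister R1, since with sister R2 alone 15 genes were called in all and with sister R1 alone 589, where the lone plant is assumed to vary like the other groups. It was also 67 without WT R3 and 54 without WT R4, and the count of the untransformed plants was 34 without WT R2 and 36 without WT R4, against 56. Between sisters and untransformed plants 0 genes were called in edgeR and in limma and 7 in DESeq2, and 1818 genes had an unadjusted p under 0.05 in edgeR.

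The replicate numbers of the 4 untransformed plants and the WT plants went with a shared deviation, but not in every case the closest one. Untransformed R4 deviated more with WT R3 (r = 0.343) than with WT R4 (r = 0.230). A fit of the 11 libraries with the number as a block called 64 genes higher and 21 lower, against 28 and 9 without the block. Of these, 27 and 10 were also among the 44 and 18. For the untransformed plants the blocked fit called 70 genes in all against 56, and for the sisters 35 against 110. Of the 62 genes, 8 that passed the filter of this fit were not called with the block, namely IMA3, AT5G19151, ALMT12, HDA9, PYE, AT3G24518, XPL1 and DRL1 (edgeR adjusted p from 0.13 to 0.35). All 8 were also not called in the 11 libraries without the block. The 28 and 9 genes called without the block were all called with it.

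Single plants of a genotype were compared with each other, and the spread of the mutant and of the WT was not shown to differ. The distance of a plant, taken as the median over genes of its absolute log2 difference to the others of its group, was 0.349 ± 0.0797 (SD, n = 6) in the mutant and 0.315 ± 0.0395 (SD, n = 5) in the WT. The difference of 0.034 was within the spread (exact permutation test, two-sided, p = 0.398). Sister R1 (0.469) and untransformed R5 (0.428) were farthest from their group, WT R5 (0.377) was farthest among the WT, and WT R1 was nearest (0.267). Over all genes tested the median SD of log2 CPM was 0.445 in the 6 plants and 0.383 in the WT, and 60.1% of genes had the larger SD in the mutant. Of the 44 genes called higher, 37 had the larger SD in the mutant, where the WT was at or near 0 for most.

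**Figure D4:**
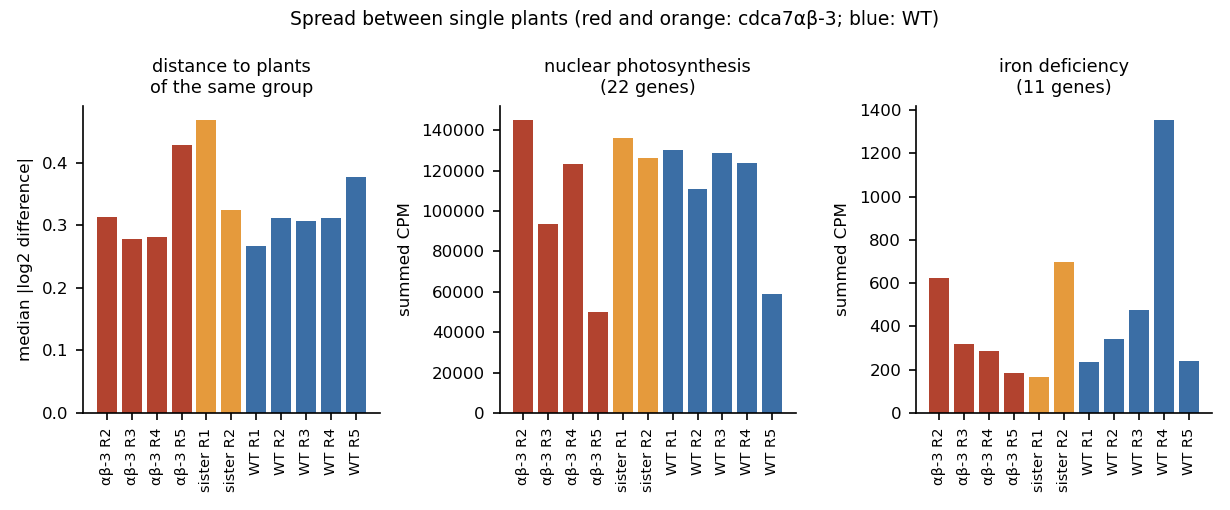
Distance of each plant to the others of its group (left), summed CPM of 22 photosynthesis genes (middle) and of 11 iron-deficiency genes (right), 1 bar per plant, red and orange for the 6 cdca7α cdca7β-3 plants and blue for the 5 WT plants. Sister R1 and untransformed R5 are the farthest plants, untransformed R5 and WT R5 are lowest in photosynthesis and WT R4 is highest in the iron genes, at 1354 CPM.

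Of the 5 genes that varied most between mutant plants none was called against the WT. Of all genes tested 0.271% were higher and 0.111% lower. These genes were also picked for their spread, so the lack of a call is no result about them. AT1G53870 and AT1G53890, near-identical copies of a LURP-one-like gene, had SDs of 3.57 and 3.08, and each was at 0 in at least 1 mutant plant. Their sum ran from 49.1 to 131 CPM in the 6 plants and from 91.5 to 207 in the WT, and in the mutant this range was narrower than that of either copy. In the mutant the same was seen at AT1G59124, a resistance gene (SD 2.97), whose sum with its copy AT1G58807 was 85.3 to 114 CPM against 93.5 to 125. AT2G10940, of the lipid-transfer protein superfamily, had 764 CPM in sister R1 and at most 49.9 in the other mutant plants (SD 3.44), and DGR2, for a cell wall protein, ran from 0 to 182 CPM with sister R1 highest (SD 2.86). In the WT, AT1G59124, AT1G53870, AT1G49500 (2.56 to 624 CPM), CML41, a calmodulin-like gene (7.12 to 749 CPM), and IMA3 varied most. CML41 ran from 7.28 to 1162 CPM in the mutant.

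TEs took 0.643% ± 0.0487 of all reads in the 6 plants (SD, n = 6) and 0.266% ± 0.0200 in the WT (SD, n = 5), a difference larger than the spread (exact permutation test, two-sided, p = 0.0022, the smallest that 462 arrangements allow). Of 420 TEs tested 193 were higher (46%) and 0 lower in edgeR, with 9 negative at an unadjusted p under 0.05 and 0 lower in DESeq2 and limma too. Both numbers are partly set by the filter, which most TEs could pass through mutant libraries. Of the 420, 113 had no WT read and 193 had at most 3 reads in every WT plant, so that a lower level could hardly have been seen there. Of the 193 higher TEs, 104 had no WT read and 178 had a read in each of the 6 plants. The groups did not overlap at 176 of them and at 179 of all TEs tested (42.6%). Each mutant plant was above every WT plant at 186 to 192 of the 193 TEs, and at 37 to 43 of the 44 genes called higher. These features were called from the same plants, so that such agreement was largely set by the choice. In the untransformed plants 187 TEs were higher (44.5%) and in the sisters 145 (34.5%).

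The called TEs differed widely in how evenly they were expressed, with SDs of log2 CPM over the 6 plants from 0.15 to 2.52 and a median of 0.65. AT2TE20940 had the lowest SD, with 47, 84.5 and 124 reads in the 6 plants and 0, 0, 0, 0 and 1 in the WT, and its level was 27.0 ± 2.93 CPM (SD, n = 6). AT3TE62685 had 103, 268 and 427 reads against 2, 1, 2, 0 and 2, or 80.5 ± 9.60 CPM (SD, n = 6) with an SD of 0.18, and a log2 fold change of 7.39 ± 1.22 (edgeR adjusted p = 0.00014). Reads of both were fewest in sister R2 and untransformed R2, the shallowest libraries, and the scaled levels were close in all 6 plants. AT4TE18315 (30 to 68 reads, SD 0.15), AT3TE58895 (28 to 98 reads, SD 0.20, at least 97.5-fold higher) and AT1TE35305 (2 to 9 reads, SD 0.22) were the other 3 with the lowest SD. These TEs were picked for a low SD, and counting error was not separated from it, so their order does not rank evenness. The counts of AT1TE35305 were low, and its call (edgeR adjusted p = 0.053) was lost without any of 4 WT plants.

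The 5 largest increases among TEs had SDs from 0.27 to 1.54, on both sides of the median of 0.65 over the called TEs. AT3TE48120 had 50, 136 and 245 reads in the 6 plants and none in the WT, at least 233-fold higher (SD 0.48). AT3TE60430 had 57, 99 and 198 reads (at least 186-fold, SD 0.88), AT2TE19610 had 16, 100.5 and 175 (at least 174-fold, SD 1.54) and AT2TE20220 had 47, 89 and 155 (at least 165-fold, SD 0.27). Untransformed R5 was lowest at AT3TE60430 and AT2TE19610. AT5TE43315 had 37 reads in untransformed R2, 169 to 414 in the other 5 plants and a single read in the WT (ratio 1266, counting interval 227 to 50030). TEs of a family share sequence, so the division of reads among copies is uncertain.

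**Figure D5:**
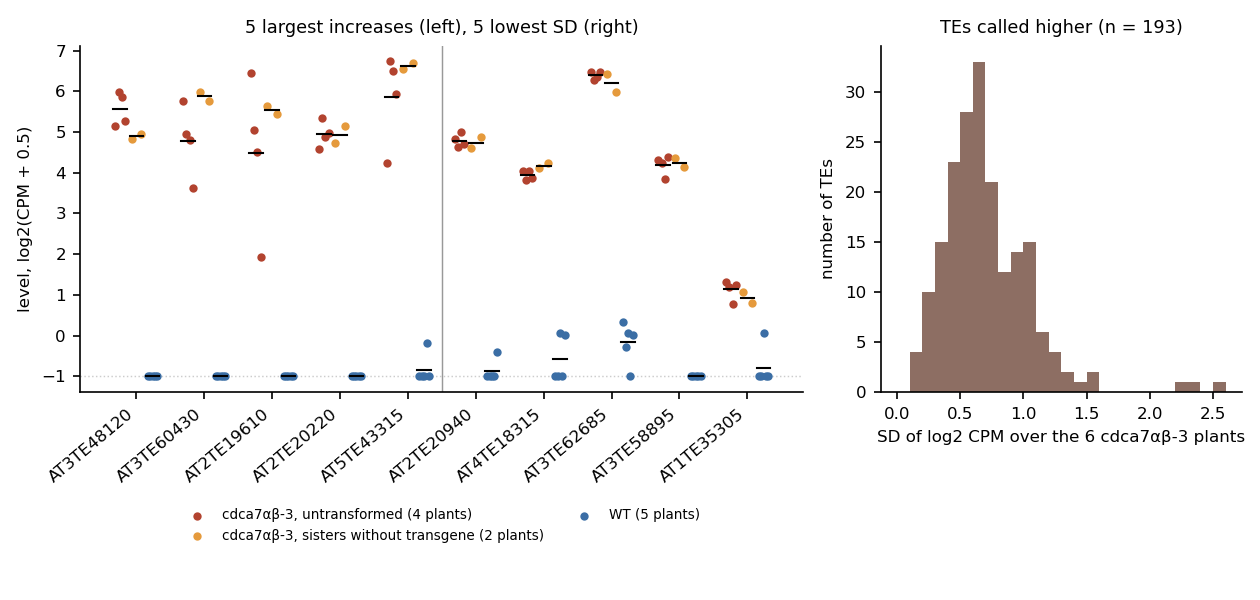
Left, levels of the 5 called TEs with the largest increase and of the 5 with the lowest SD, as log2(CPM + 0.5) in each plant (red, 4 untransformed, orange, 2 sisters, blue, 5 WT plants), with black bars for group means and a dotted line at 0 reads. Right, SDs of log2 CPM over the 6 mutant plants for the 193 TEs called higher, which run from 0.15 to 2.52 with a median of 0.65.

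Evenness between plants was set against the first set, which the SDs did not use. Of the 193 TEs, 189 were tested there, and 148 of the 189 were called higher in cdca7ab_1 and 157 in cdca7ab_2. Over all 978 TEs tested in that set, 190 were higher in cdca7ab_1 (19.4%) and 196 in cdca7ab_2 (20%), and 1 was lower in each (0.102%). Of the 47 with the lowest SD, 43 and 44 were called, and of the 47 with the highest SD, 34 and 35. The 48 TEs of lowest SD had a median level of 14.1 CPM in the 6 plants, the 48 of highest SD had 6.63, and 0 and 15 of them had a plant at 0 reads. The TEs of lowest SD were thus the more highly expressed, and the part of the level in this was not tested. Called TEs were on all 5 chromosomes, 32 of 87 tested on chromosome 1, 39 of 83 on 2, 36 of 94 on 3, 46 of 84 on 4 and 40 of 72 on 5.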

How the data were processed

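Sense reads of 3′-tag libraries of single leaves were used, as estimated counts per transcript that the authors deposited. Per the paper's methods and the submitters' processing notes, duplicates were removed by molecular identifier, reads were aligned with STAR 2.7.11a to TAIR10, and Salmon 1.10.1 divided them among AtRTD3 transcripts, TAIR10 TEs and the transgene, so reads of near-identical copies were shared by estimation. Here these expected counts, as deposited, were summed per locus and rounded. Loci with at least 10 reads in at least 3 of the 82 second-set libraries were fitted together in edgeR 4.0.16 (R 4.3.3) with TMM scaling and a quasi-likelihood test, with p adjusted by Benjamini-Hochberg over all 17510 loci. The SE of a log2 fold change was derived from the F statistic. The first set was fitted apart. A fold against a group at 0 was computed against 3 reads over the group. DESeq2 1.42.0, limma 3.58.1, upper-quartile scaling, other filters and thresholds and the omission of each plant were alternatives. The tests were checked on simulated counts. Called there were 11 of 50 genes set at a 2-fold difference (22%) and 47 of 50 set at 4-fold (94%). All 50 set at 8-fold and all 50 set at 16-fold were called. Genes set at no difference made up 8.67% of the calls. Differences close to the fold limit were thus mostly missed there. Gene names, biotypes and neighbours came from RefSeq (TAIR10.1), and no coordinates are given because the builds' names differ.

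Members and the 29 gene lists were chosen with earlier results of these data known. Named were the mutated genes, DDM1 and neighbours of the mutated genes, the 12 largest increases and decreases (5 for TEs) among called features without overlap, called members of lists, the 5 TEs of lowest SD and the 5 genes of largest SD in each group with a mean log2 CPM of at least 3. SQN, MRU1, AT5G35480, AT1G75945 and other called genes outside this rule were chosen after their values were seen.

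Whether replicate numbers pair the plants was checked from deviations from group means. Correlations of same-numbered untransformed and WT plants were 0.337, 0.143, 0.230 and 0.629, all above 0.1, and those of the sisters were -7.37e-05 and -0.111. The 2 sisters deviate from their own mean by equal and opposite amounts, so their correlations cannot show whether they are paired. Untransformed and WT plants of other numbers ranged from -0.426 (untransformed R4 with WT R5) to 0.343 (untransformed R4 with WT R3). Pairs of other numbers could thus be as close as those of the same number. Any pairing comes from the data, could be looked for only among the untransformed plants and is not certain. Among the 17 pairs of libraries within the untransformed, sister and WT groups, none agreed within sampling noise, and pairs across groups were not compared.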

Additional observations from a re-analysis of the deposited data

Results flagged for a closer look

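In 80 groups of values of named features, 12 had a plant far from the others of its group, where chance alone flags about 1 group in 20. That rate is for values without ties. Where all other plants had 0 reads, a plant with any read was always flagged, so the 12 cannot be set against it. Values are log2 CPM with a prior count. Among the 6 mutant plants, untransformed R5 stood low at AT1G59930 (7.23, with the nearest plant at 9.29) and at AT5G29560 (0.76, nearest 4.28), and untransformed R2 stood low at AT5TE43315 (4.26, nearest 5.94). Sister R1 stood high at JAZ7 (6.39) and, with its single read, at CDCA7β (-0.054).

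In the WT the far plants rested on 1 to 3 reads where the other plants had none. WT R4 was at 0.031 for AT1G59920, AT3G01345 and AT5TE43315, WT R5 was at -0.15 for AT2G15555 and AT2TE20940, and WT R3 was at 0.56 for JAZ7 and 0.26 for AT1TE35305.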

How the results depend on the processing

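No called gene or TE changed direction under any alternative run, but list medians did. Those of touch (0.80), jasmonate (0.34) and photosynthesis genes (0.02) were -0.23, -0.03 and -0.03 without sister R1. The 44 higher genes, 18 lower genes and 193 TEs became 46, 15 and 152 in DESeq2, 33, 9 and 188 in limma, and 28, 9 and 141 in a fit of the 11 libraries alone, where 15 of the 44, 2 of the 18 and 48 of the 193 did not pass the filter. Leaving out 1 plant gave 31 to 50, 13 to 25 and 173 to 192, and 27, 8 and 165 features were called in each such fit. With the replicate block the 11 libraries gave 64 higher and 21 lower genes and 145 TEs. Calls in the untransformed plants ran from 34 to 56 without single libraries. Those in the sisters (110) were 62 in DESeq2, 72 with the 11 libraries alone, 58 without the filter, 35 with the replicate block, 50 at an adjusted p of 0.05 and 15 to 589 without single libraries. Between sisters and untransformed plants DESeq2 gave 7, and leaving out a library gave 0 to 1. Without the filter cdca7ab_1 gave 191, cdca7ab_2 267 (50 each with it) and cdca7α 17. The cdca7α count of 46 was 8 at an adjusted p of 0.05 and 3 to 157 without single libraries, and the cdca7β count of 3 was 6 in DESeq2 and 3 to 5 without single libraries. AT5G29560 and IMA1 were not called in limma. The causes were not tested. The difference in plant distance stayed between 0.00891 and 0.0589 (exact permutation p from 0.206 to 0.833). Genes with few reads, CDCA7β and DDM1 among them, are limited by depth.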
